A study of Homo sapiens with 33 samples.

Results

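Amino acid transporters are the membrane proteins that carry amino acids into and out of cells. The 10 genes described here are SLC7A11, SLC7A5, SLC3A2, SLC7A1, SLC7A3, SLC1A4, SLC1A5, SLC38A1, SLC38A2 and SLC6A9, taken by symbol from a table of 26475 genes. All 10 were in the table, and all 10 passed the filter on low counts that left 14613 genes for testing. They were measured by RNA sequencing of HEK293T cells, a human embryonic kidney line, after transfection with plasmids for base editors. A base editor joins a Cas9 nickase, which cuts a single DNA strand, to a deaminase that changes one base into another. The study asked how such constructs alter the transcriptome.

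The 33 libraries formed 11 groups of 3. ABEmax and miniABEmax-V82G are adenine editors, Target-AID is a cytosine editor, and SpACE edits both bases. nCas9, the nickase without a deaminase, and GFP, a fluorescent protein, were the negative controls. Each editor and nCas9 was delivered with a guide RNA to the genomic site HEKsite2 and, in other libraries, with a guide to the gene RNF2. GFP had no guide. All constructs carried GFP, and cells were sorted for it between 36 and 40 h after transfection, so every group, controls included, had been transfected and sorted. The table names of the SpACE libraries include UGI, and its labels do not settle whether that construct holds it. Nothing in the labels says that replicates were separate cultures, so p-values measure the spread between these libraries. In bulk RNA, fewer cells that express a gene and less of its RNA per cell cannot be told apart.

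Several of these transporters work as pairs. SLC3A2 encodes the heavy chain that carries light chains such as SLC7A5 and SLC7A11 to the cell surface. When amino acids run short or proteins misfold, kinases phosphorylate the initiation factor eIF2 and the transcription factor ATF4 is translated more. ATF4 binds C/EBP-ATF response elements and raises genes for amino acid synthesis and transport, among them SLC7A11, SLC7A5, SLC3A2 and SLC7A1. SLC7A11 is also a known target of NRF2, the transcription factor of the oxidative stress response, which binds antioxidant response elements. This control is known from many cell types and is given as background, since protein levels and transport were not measured here.

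Promoter windows, 250 bases before to 50 after an annotated start, came from RefSeq on GRCh38.p14, which held 14 windows for 8 of the 10 genes. SLC7A11 and SLC7A3 had no entry. The letters TGATGNAA of the C/EBP-ATF response element, searched on both strands, were found in 5 of the 14 windows, against 3.62% of 35116 windows of all genes. Those 5 windows belonged to SLC3A2, SLC1A4, SLC7A1, SLC38A1 and SLC1A5. The letters TGACNNNGC of the antioxidant response element were found in windows of SLC3A2, SLC7A1, SLC7A5 and SLC1A5, against 13.35% of all windows. Windows of SLC3A2, SLC1A4 and SLC7A1, which rose in most of the comparisons described here, are shown 5′ to 3′ on the strand of the gene, with matches in capitals.
SLC3A2 at chr11:62881449-62881748, plus strand: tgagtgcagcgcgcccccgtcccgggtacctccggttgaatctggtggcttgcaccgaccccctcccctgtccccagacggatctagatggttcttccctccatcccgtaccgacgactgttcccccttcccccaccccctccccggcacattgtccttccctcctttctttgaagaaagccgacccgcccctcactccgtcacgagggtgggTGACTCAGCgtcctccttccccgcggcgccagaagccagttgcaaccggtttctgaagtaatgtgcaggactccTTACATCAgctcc
SLC1A4 at chr2:64989149-64989448, plus strand: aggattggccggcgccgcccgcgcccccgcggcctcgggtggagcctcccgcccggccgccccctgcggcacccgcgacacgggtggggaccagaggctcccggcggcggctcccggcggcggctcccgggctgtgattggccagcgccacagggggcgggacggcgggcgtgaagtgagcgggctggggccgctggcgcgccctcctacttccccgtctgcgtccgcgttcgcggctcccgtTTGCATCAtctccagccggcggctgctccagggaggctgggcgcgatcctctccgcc
SLC7A1 at chr13:29595639-29595938, minus strand: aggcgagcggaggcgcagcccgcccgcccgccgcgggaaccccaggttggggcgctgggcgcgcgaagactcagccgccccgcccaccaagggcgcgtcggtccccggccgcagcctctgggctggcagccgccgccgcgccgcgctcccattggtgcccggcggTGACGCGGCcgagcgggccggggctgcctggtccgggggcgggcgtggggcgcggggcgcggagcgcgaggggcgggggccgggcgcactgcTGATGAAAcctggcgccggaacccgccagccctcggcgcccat
In SLC3A2 the capitals mark TGACTCAGC, whose first base lies 37 bases before the start, and TTACATCA, which begins at base 38 counted from the start as base 1 and is the C/EBP-ATF letters read on the other strand. In SLC1A4 they mark TTGCATCA, also on the other strand, 7 bases before the start. In SLC7A1 they mark TGACGCGGC, 85 bases before the start, and TGATGAAA, at base 8. The matches did not overlap each other. The SLC3A2 and SLC1A4 windows belong to starts inside the annotated gene, since both genes have other starts upstream. Of the genes not shown, SLC1A5 and SLC38A1 also held the C/EBP-ATF letters, and rose in 0 and 4 of the 8 comparisons of editors with nCas9. Windows of SLC7A5, SLC6A9 and SLC38A2 did not hold them, and these genes rose in 6, 5 and 2. A match describes letters in a window and does not show that a factor binds there.

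Levels are given in CPM, read counts divided by library totals scaled by the trimmed mean of M-values, and brought to a common size, which sets the bulk of genes equal between libraries. To compare genes, the mean over the 11 groups was divided by the length of the annotated exons. On this scale SLC3A2 was highest at 82.3 CPM per kb, before SLC1A5 at 73.1, SLC38A2 at 57.7 and SLC7A5 at 54.8 CPM per kb. SLC38A1 followed at 34.3, SLC7A1 at 25.9 and SLC7A11 at 16.5 CPM per kb. SLC1A4 at 6.41, SLC7A3 at 5.00 and SLC6A9 at 2.697 CPM per kb were the lowest. The 2 scarcest genes had few reads, from 56 to 135 per library for SLC7A3 and from 53 to 170 for SLC6A9. The other 8 had at least 199 in every library. Between groups SLC1A4 and SLC3A2 varied most, with the highest group mean 2.86 and 2.71 times the lowest. SLC38A2 and SLC1A5 varied least, by 1.20 and 1.21 times. For each gene the 11 groups were put in order of their means, which gives 10 pairs of neighbours, and in 7 or more of the 10 the libraries overlapped. For SLC3A2 the neighbours that did not overlap were ABEmax HEKsite2 and ABEmax RNF2, ABEmax RNF2 and SpACE RNF2, and nCas9 HEKsite2 and GFP. For SLC1A4 they were ABEmax RNF2 and miniABEmax-V82G RNF2, nCas9 RNF2 and nCas9 HEKsite2, and nCas9 HEKsite2 and GFP. For SLC7A11 they were SpACE RNF2 and SpACE HEKsite2, and nCas9 RNF2 and nCas9 HEKsite2, the lowest group. Within groups the median coefficient of variation ran from 3.03% for SLC38A2 to 11% for SLC6A9.

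**Figure D1:**
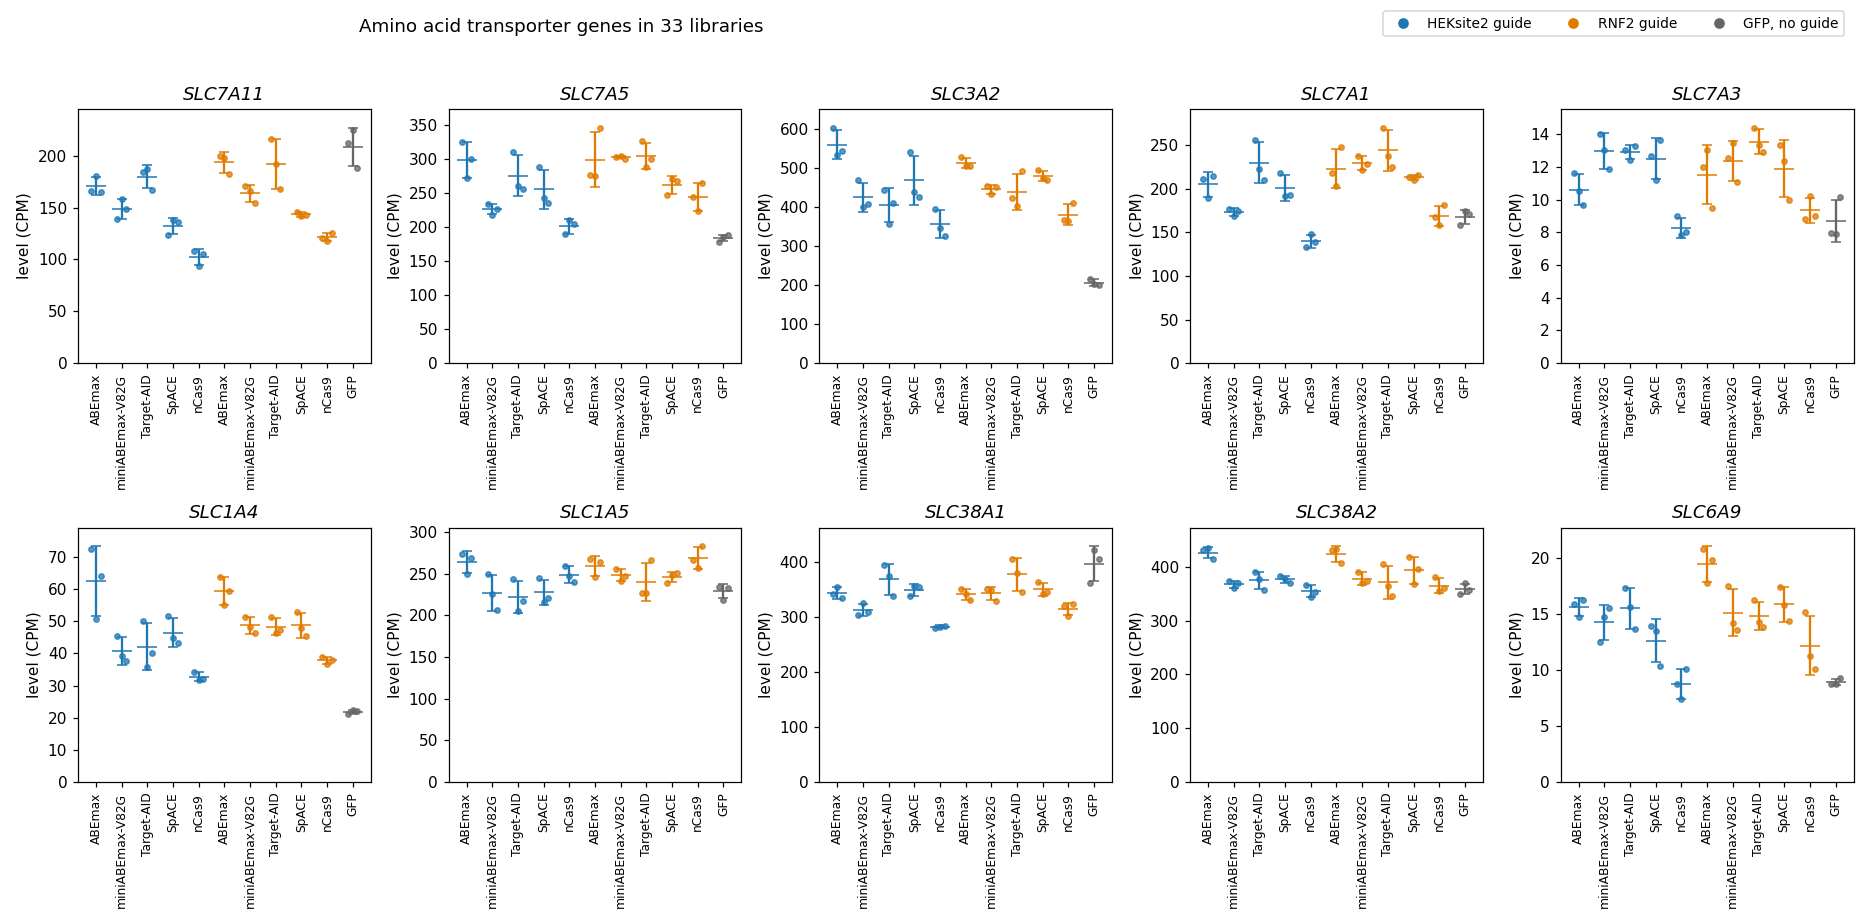
Level in CPM of each of the 10 genes in all 33 libraries. Points are libraries, horizontal bars are means and error bars are SD (n = 3). Each axis starts at 0. The means of SLC3A2 and SLC1A4 were lowest in GFP libraries, while those of SLC7A11 and SLC38A1 were highest there.

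Total counts ran from 6790209 to 11200406 per library. No 2 replicates were identical, and their counts differed by more than sampling noise, with a chi-square per degree of freedom from 1.398 to 20.71 over 33 pairs. The 4 pairs that hold Target-AID replicate 3 with either guide had values from 9.916 to 20.71, and the other pairs at most 5.023. Replicate 3 was the lowest of its Target-AID group for SLC7A11, SLC7A1, SLC38A1 and SLC38A2 with both guides. Without it, the rise of SLC7A11 in Target-AID over nCas9 was 0.86 with HEKsite2 and 0.75 with RNF2, and that of SLC7A1 was 0.78 and 0.59. The members called against nCas9 were then 7 higher and 0 lower with HEKsite2, and 6 higher and 1 lower with RNF2, where SLC3A2 lost its call and SLC1A5 passed as lower. All 6 markers of HEK293 cells were detected in every group, with a summed level of 157 to 198 CPM per library. One of them, the neurofilament gene NEFL, was lower than in nCas9 in 7 of the 8 comparisons of editors, from -0.28 to -0.36. The 9 liver markers summed to 2.97 to 3.49 CPM in Target-AID with HEKsite2 and 1.93 to 3.28 CPM in Target-AID with RNF2, against 0.140 to 0.587 CPM and 0.347 to 1.02 CPM in nCas9 with the same guides. The 9 included APOB and SERPINA1, the only ones that passed the filter on low counts, with 71 and 87 reads in all libraries together. Both were called higher in Target-AID than in nCas9 with both guides, and SERPINA1 was at 0 in nCas9. The filter can be passed through a few libraries, so genes this scarce could enter through the Target-AID libraries where they were high. These calls therefore add no separate evidence to the sums. APOA1, with 67 reads, did not pass the filter. APOA1 was at 0 in the HEKsite2 libraries of Target-AID and APOA2 in its RNF2 libraries. The 7 mesenchymal markers summed to 10.4 to 19.4 CPM in editors and nCas9, against 21.0 to 27.7 CPM in GFP, and the 6 blood markers to at most 2.66 CPM in any library. The part of these markers in the results was not tested.

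Against nCas9 with the same guide, every member that passed the test was higher in the editor. Genes were called where edgeR's quasi-likelihood test over all 33 libraries gave a Benjamini-Hochberg adjusted p under 0.05. With the HEKsite2 guide, 8 of the 10 genes rose in ABEmax, where 8.31% of all tested genes rose. miniABEmax-V82G raised 5 against a background of 5.02%, Target-AID raised 7 against 21.5%, and SpACE raised 8 against 10.7%. The RNF2 guide gave 7 in ABEmax against a background of 6.51%, 5 in miniABEmax-V82G against 6.88%, 7 in Target-AID against 19.4% and 4 in SpACE against 8.03%. All of these shares of members lay above the background. The 10 genes were chosen with earlier results of these data known, so this describes them and is not a test of enrichment. The median log2 fold change over the 10 genes was 0.56, 0.28, 0.42 and 0.38 for ABEmax, miniABEmax-V82G, Target-AID and SpACE with the HEKsite2 guide. With the RNF2 guide it was 0.35, 0.30, 0.30 and 0.29 in the same order. Over all tested genes the median lay between -0.0052 and 0.015 in the comparisons made here. The editors share the nCas9 libraries of their guide, so these comparisons are not independent of each other.

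By gene, SLC7A11 and SLC7A1 were called in all 8 comparisons with nCas9, SLC1A4 in 7, and SLC7A5 and SLC3A2 in 6. SLC7A3 and SLC6A9 were called in 5, SLC38A1 in 4 and SLC38A2 in 2. SLC1A5 was called in 0 of the 8 by the main edgeR fit and by DESeq2, with an unadjusted p under 0.05 in 2. In edgeR with RLE scaling, and with replicate number in the fit, it was called lower in Target-AID with both guides.

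**Figure D2:**
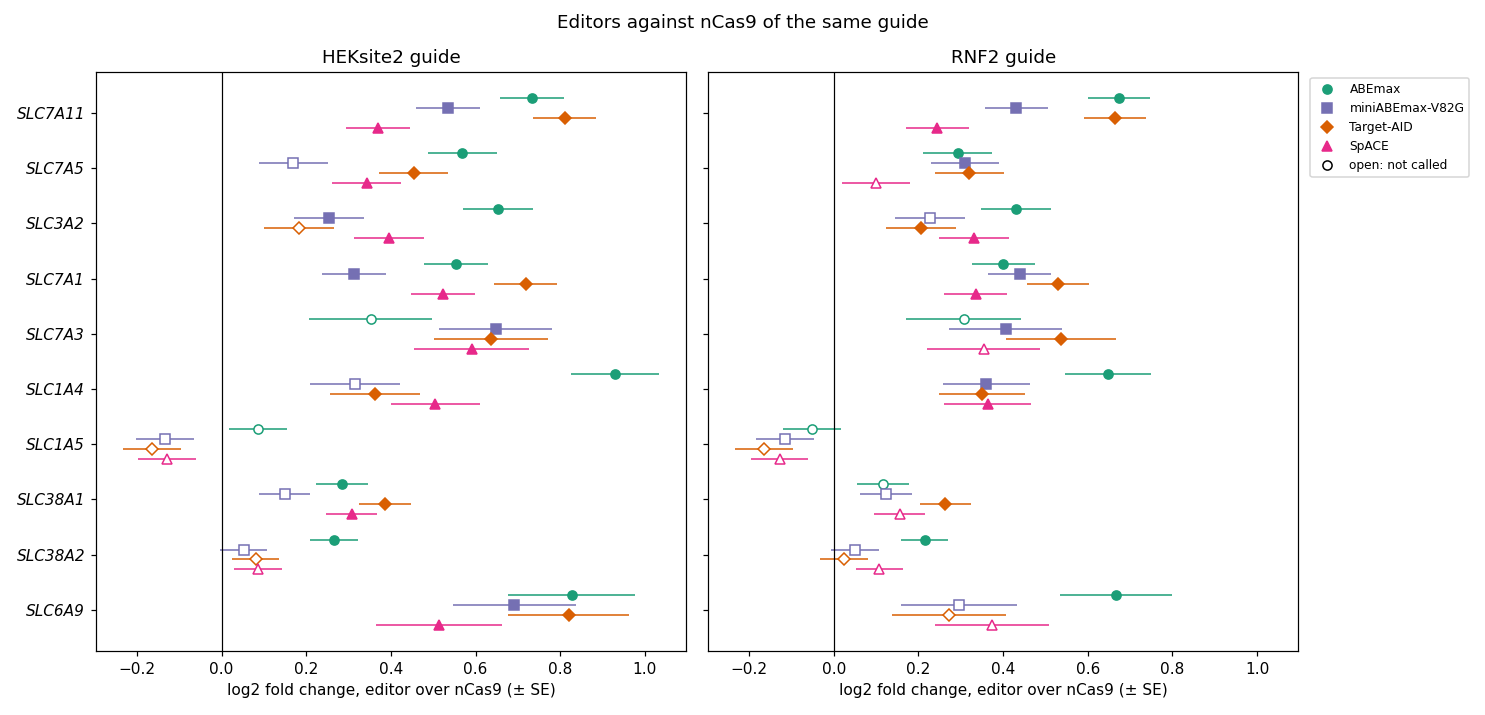
Log2 fold change of each editor over nCas9 with the same guide, with the HEKsite2 guide on the left and the RNF2 guide on the right. Markers are estimates of the fit and bars are ± SE; filled markers passed an adjusted p of 0.05. SLC7A11 and SLC7A1 have filled markers for all 4 editors with both guides, and SLC1A5 lies between -0.16 and 0.09.

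SLC7A11, the light chain of the cystine and glutamate exchanger that supplies cystine for glutathione, lies on the minus strand of chromosome 4 from 138164097 to 138242349 (GRCh38). In cells with the HEKsite2 guide its levels were 165, 180.4 and 165 CPM in ABEmax, 139, 158 and 149 in miniABEmax-V82G, 184, 188 and 167 in Target-AID and 123, 138 and 136 in SpACE, against 108, 93.9 and 105 CPM in nCas9. In cells with the RNF2 guide they were 199.98, 198 and 182 CPM in ABEmax, 171, 166 and 154 in miniABEmax-V82G, 216, 192 and 168 in Target-AID and 146, 142 and 142 in SpACE, against 121, 118 and 125 CPM in nCas9. GFP libraries had 212, 225 and 188 CPM. No editor library fell as low as an nCas9 library of its guide, and all 6 nCas9 libraries lay below all 3 GFP libraries. The log2 fold change over nCas9 was largest in Target-AID with HEKsite2, 0.81 ± 0.075 (SE, adjusted p = 1.60e-11), and smallest in SpACE with RNF2, 0.24 ± 0.075 (adjusted p = 0.0211). That smallest difference missed the threshold without nCas9 replicate 1, SpACE replicate 1 or nCas9 replicate 2, at 0.23 to 0.24 with adjusted p of 0.0587 to 0.0799. The remaining values were 0.73 for ABEmax, 0.54 for miniABEmax-V82G and 0.37 for SpACE with HEKsite2, and 0.67 for ABEmax, 0.43 for miniABEmax-V82G and 0.66 for Target-AID with RNF2. An antisense gene, SLC7A11-AS1, overlaps this gene, and it had 384 reads in all libraries together against 45762 for SLC7A11. The strand setting of the counting is not given, so reads of an overlapping pair cannot be told apart with certainty.

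SLC3A2, the heavy chain that pairs with SLC7A11 and SLC7A5, lies on the plus strand of chromosome 11 from 62856102 to 62888875, and the window shown for it holds both sets of letters. It was measured at 605, 535 and 545 CPM in ABEmax, 469, 399.9 and 408 in miniABEmax-V82G, 446, 358 and 412 in Target-AID and 543, 439 and 428 in SpACE with the HEKsite2 guide, against 397, 346 and 328 CPM in nCas9. With RNF2 the levels were 528, 507 and 507 CPM in ABEmax, 455, 433 and 452 in miniABEmax-V82G, 424, 403 and 493 in Target-AID and 495, 475 and 471 in SpACE, against 367, 366 and 412 CPM in nCas9. GFP libraries had 217, 203 and 200.4 CPM, less than every other library. ABEmax gave the largest rise over nCas9 with both guides, 0.65 ± 0.083 (SE, adjusted p = 2.03e-07) with HEKsite2 and 0.43 ± 0.082 (adjusted p = 0.000385) with RNF2. SpACE followed at 0.39 ± 0.083 (adjusted p = 0.000555) and 0.33 ± 0.082 (adjusted p = 0.00441). ABEmax, SpACE and miniABEmax-V82G libraries did not overlap those of nCas9 with the same guide. Target-AID libraries did, at 0.18 ± 0.083 (adjusted p = 0.0746) with HEKsite2 and 0.21 ± 0.082 (adjusted p = 0.0485) with RNF2. The second of these was lost without nCas9 replicate 1, nCas9 replicate 2 or Target-AID replicate 3, at 0.12 to 0.18, with RLE scaling at 0.20 (adjusted p = 0.0526), in DESeq2 at 0.20 (adjusted p = 0.0575) and in a fit of the 2 groups alone at 0.20 (adjusted p = 0.117). The first passed without nCas9 replicate 1 or Target-AID replicate 2, at 0.27 in both cases. It also passed with replicate number in the fit, at 0.18 (adjusted p = 0.0333). miniABEmax-V82G reached 0.25 ± 0.083 (adjusted p = 0.0417) with HEKsite2, which missed the threshold in 4 of 6 fits with a library left out. Those were the fits without miniABEmax-V82G replicate 1 or 3 or nCas9 replicate 2 or 3, at 0.18 to 0.28. With RNF2 its value of 0.23 ± 0.083 had an adjusted p of 0.0633, and it passed without nCas9 replicate 3, at 0.28 (adjusted p = 0.0413), without the filter on low counts, at 0.23 (adjusted p = 0.0101), and in the fit of the 2 groups alone, at 0.23 (adjusted p = 0.00115). This RNF2 value passed too with replicate number in the fit, at 0.23 (adjusted p = 0.0241).

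SLC7A5, the light chain that takes up leucine and other large neutral amino acids, lies on the minus strand of chromosome 16 from 87830023 to 87869488. Its levels with the HEKsite2 guide were 325, 272 and 301 CPM in ABEmax, 234, 219 and 228 in miniABEmax-V82G, 311, 261 and 256 in Target-AID and 288, 243 and 236 in SpACE, against 189.5, 211 and 205 CPM in nCas9. With the RNF2 guide they were 276, 276 and 347 CPM in ABEmax, 304, 305 and 301 in miniABEmax-V82G, 327, 289 and 301 in Target-AID and 247, 271 and 268 in SpACE, against 245, 224 and 265 CPM in nCas9. The range of SpACE with RNF2 overlapped that of nCas9, and the other 7 editor groups lay above nCas9 of their guide in all libraries. Rises over nCas9 ran from 0.29 ± 0.081 (SE, adjusted p = 0.0143) in ABEmax with RNF2 to 0.57 ± 0.082 (adjusted p = 2.82e-06) in ABEmax with HEKsite2. The smaller one was lost without nCas9 replicate 2 or ABEmax replicate 3, at 0.18 to 0.23. The rise of 0.31 in miniABEmax-V82G with RNF2 was lost without nCas9 replicate 2, at 0.25 (adjusted p = 0.088). SLC7A5 rose by 0.45 in Target-AID and 0.34 in SpACE with HEKsite2 and by 0.32 in Target-AID with RNF2. Values of 0.17 in miniABEmax-V82G with HEKsite2 (95% interval 0.0038 to 0.34) and 0.10 in SpACE with RNF2 (95% interval -0.064 to 0.26) did not pass. GFP libraries had 179, 185 and 189 CPM.

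SLC7A1 and SLC7A3 carry the cationic amino acids arginine and lysine, and passed the test in 8 and 5 of the 8 comparisons with nCas9. SLC7A1 lies on the minus strand of chromosome 13 from 29509410 to 29595688. It stood at 211, 189 and 215 CPM in ABEmax, 177, 168 and 175 in miniABEmax-V82G, 256, 223 and 209.9 in Target-AID and 218, 192 and 193 in SpACE with the HEKsite2 guide, against 133, 148 and 139 CPM in nCas9. With RNF2 it stood at 218, 203 and 247 CPM in ABEmax, 237, 221 and 228 in miniABEmax-V82G, 269.7, 237 and 224 in Target-AID and 213, 210.2 and 215 in SpACE, against 167, 158 and 181 CPM in nCas9. No editor group overlapped nCas9 of its guide. The largest rise was in Target-AID, 0.72 ± 0.075 (SE, adjusted p = 3.45e-10) with HEKsite2 and 0.53 ± 0.073 (adjusted p = 2.87e-07) with RNF2. The smallest, in miniABEmax-V82G with HEKsite2, was 0.31 ± 0.075 (adjusted p = 0.00496), and all 8 rises passed in each fit with a library left out. GFP libraries had 159, 174 and 171 CPM.

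SLC7A3, on the minus strand of chromosome X from 70925582 to 70931125, was the scarcer of the 2. With the HEKsite2 guide it had 11.6, 10.5 and 9.69 CPM in ABEmax, 14.04, 13.05 and 11.8 in miniABEmax-V82G, 13.1, 12.4 and 13.3 in Target-AID and 12.7, 11.2 and 13.7 in SpACE, against 8.97, 7.85 and 7.999 CPM in nCas9. With RNF2 it had 12.01, 13.04 and 9.51 CPM in ABEmax, 12.6, 13.48 and 11.1 in miniABEmax-V82G, 14.4, 13.3 and 12.9 in Target-AID and 13.3, 12.4 and 9.95 in SpACE, against 8.81, 10.2 and 8.97 CPM in nCas9. All HEKsite2 editor groups lay above nCas9, and with RNF2 miniABEmax-V82G and Target-AID did, while ABEmax and SpACE overlapped it. SLC7A3 rose by 0.65 ± 0.13 (SE, adjusted p = 0.00105) in miniABEmax-V82G, 0.64 ± 0.13 (adjusted p = 0.000179) in Target-AID and 0.59 ± 0.14 (adjusted p = 0.00151) in SpACE with HEKsite2. Target-AID with RNF2 gave 0.54 ± 0.13 (adjusted p = 0.00112). The rise of 0.41 ± 0.13 (adjusted p = 0.0401) in miniABEmax-V82G with RNF2 was lost in 5 of 6 fits with a library left out, all but the one without miniABEmax-V82G replicate 3, with values of 0.34 to 0.48. It was also lost in DESeq2, at 0.41 (adjusted p = 0.0749), and without the filter on low counts, at 0.41 (adjusted p = 0.0562). ABEmax did not pass with either guide, at 0.35 ± 0.15 and 0.31 ± 0.14. SpACE with RNF2 had 0.35 ± 0.13 (adjusted p = 0.0652) and passed without SpACE replicate 3, at 0.46 (adjusted p = 0.0242). GFP libraries had 7.97, 7.90 and 10.2 CPM.

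SLC1A4, an exchanger of alanine, serine, cysteine and threonine, lies on the plus strand of chromosome 2 from 64988477 to 65023865. It had 72.3, 50.8 and 64.1 CPM in ABEmax, 45.5, 39.0 and 37.5 in miniABEmax-V82G, 50.2, 35.9 and 40.2 in Target-AID and 51.5, 44.7 and 43.2 in SpACE with the HEKsite2 guide, against 34.3, 31.7 and 32.1 CPM in nCas9. With the RNF2 guide its levels were 63.8, 54.9 and 59.3 CPM in ABEmax, 51.4, 48.3 and 46.4 in miniABEmax-V82G, 51.3, 46.2 and 47.4 in Target-AID and 52.8, 47.7 and 45.5 in SpACE, against 38.9, 36.7 and 38.0 CPM in nCas9. GFP libraries had 21.2, 22.3 and 22.0 CPM. All editor libraries lay above nCas9 of the same guide, and all nCas9 libraries lay above GFP. ABEmax raised it most, by 0.93 ± 0.10 (SE, adjusted p = 1.08e-08), or 1.91-fold, with HEKsite2 and by 0.65 ± 0.10 (adjusted p = 1.97e-05) with RNF2. Rises of 0.50 in SpACE and 0.36 in Target-AID with HEKsite2, and of 0.36 in miniABEmax-V82G, 0.35 in Target-AID and 0.36 in SpACE with RNF2, passed the test too. The Target-AID rise with HEKsite2 was lost without Target-AID replicate 1, at 0.21 (adjusted p = 0.127). With RNF2 the rise in miniABEmax-V82G was lost without miniABEmax-V82G replicate 1 or nCas9 replicate 2, at 0.32 to 0.34, and that in SpACE without SpACE replicate 1, at 0.30 (adjusted p = 0.085). miniABEmax-V82G with HEKsite2 had 0.31 ± 0.11 (adjusted p = 0.0507), which passed without the filter on low counts, at 0.31 (adjusted p = 0.0129), and in a fit of the 2 groups alone, at 0.32 (adjusted p = 0.018). With replicate number in the fit this value also passed, at 0.31 (adjusted p = 0.0092).

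SLC1A5, the related exchanger that takes up glutamine, lies on the minus strand of chromosome 19 from 46774883 to 46788594 and passed in none of the 8 comparisons with nCas9, where SLC1A4 passed in 7. With HEKsite2 it had 274, 249 and 269 CPM in ABEmax, 249, 225 and 206 in miniABEmax-V82G, 244, 205 and 217 in Target-AID and 245, 216 and 221 in SpACE, against 259.7, 247 and 239 CPM in nCas9. With RNF2 it had 268, 246 and 264 CPM in ABEmax, 256, 241 and 247 in miniABEmax-V82G, 227, 227 and 266 in Target-AID and 239, 249 and 250.7 in SpACE, against 267, 257 and 283 CPM in nCas9. The groups overlapped in 6 of the 8 comparisons, and miniABEmax-V82G and SpACE with RNF2 lay below nCas9 in all libraries. Target-AID had -0.16 ± 0.069 (SE, 95% interval -0.30 to -0.026, adjusted p = 0.0516) with HEKsite2 and -0.16 ± 0.068 (95% interval -0.30 to -0.027, adjusted p = 0.056) with RNF2. These values were close to the threshold, and under RLE scaling both passed, at -0.17 with adjusted p of 0.0477 and 0.0498. The HEKsite2 value also passed without the filter on low counts, at -0.18, and without Target-AID replicate 1 or nCas9 replicate 3, at -0.19 to -0.24. The RNF2 value passed without Target-AID replicate 3, at -0.25. With replicate number in the fit both passed, at -0.17 with HEKsite2 and -0.16 with RNF2 (adjusted p of 0.0269 and 0.0312).

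SLC38A1 and SLC38A2 encode sodium-coupled carriers of glutamine, alanine and other small neutral amino acids, and are neighbours on the minus strand of chromosome 12, from 46183063 to 46270017 and from 46358189 to 46372867. SLC38A1 had 342, 356 and 335 CPM in ABEmax, 305, 326 and 309 in miniABEmax-V82G, 395, 374 and 338 in Target-AID and 338, 356 and 355 in SpACE with the HEKsite2 guide, against 280.0, 283 and 285 CPM in nCas9. With RNF2 it had 351, 342 and 332 CPM in ABEmax, 352, 349 and 329 in miniABEmax-V82G, 406, 381 and 347 in Target-AID and 364, 343 and 345 in SpACE, against 319, 302 and 323 CPM in nCas9. Editor libraries lay above nCas9 of their guide in all 8 comparisons, but the differences were small. SLC38A1 rose by 0.28 ± 0.061 (SE, adjusted p = 0.00106) in ABEmax, 0.39 ± 0.061 (adjusted p = 2.35e-06) in Target-AID and 0.31 ± 0.061 (adjusted p = 0.000295) in SpACE with HEKsite2, and by 0.26 ± 0.061 (adjusted p = 0.000702) in Target-AID with RNF2. The other values, from 0.12 in ABEmax with RNF2 to 0.16 in SpACE with RNF2, did not pass. GFP libraries had 362, 423 and 407 CPM.

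SLC38A2, whose transcript is known to rise when amino acids are scarce, rose in ABEmax alone among the editors tested here. With HEKsite2 its levels were 432, 434 and 414 CPM in ABEmax, 374, 361 and 369 in miniABEmax-V82G, 390.1, 377 and 358 in Target-AID and 383, 377 and 370.2 in SpACE, against 366, 345 and 354 CPM in nCas9. With RNF2 they were 431, 433 and 408 CPM in ABEmax, 391, 370.1 and 374 in miniABEmax-V82G, 405, 365 and 345 in Target-AID and 418, 368 and 395 in SpACE, against 381, 354 and 361 CPM in nCas9. ABEmax lay above nCas9 in all libraries with both guides. The rises were 0.27 ± 0.056 (SE, adjusted p = 0.00084) with HEKsite2 and 0.21 ± 0.056 (adjusted p = 0.0091) with RNF2, and the RNF2 value was 0.19 (adjusted p = 0.0662) without nCas9 replicate 2. The other 6 values ran from 0.024 in Target-AID with RNF2 to 0.11 in SpACE with RNF2, and the highest upper bound among their 95% intervals was 0.22. Whether ABEmax differed from the other 3 editors was not tested. GFP libraries had 349.8, 369.6 and 358 CPM.

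SLC6A9, a glycine transporter, lies on the minus strand of chromosome 1 from 43991500 to 44031467 and had the largest relative spread within groups. With HEKsite2 it had 15.9, 14.7 and 16.3 CPM in ABEmax, 12.5, 14.7 and 15.5 in miniABEmax-V82G, 17.3, 15.6 and 13.6 in Target-AID and 13.9, 13.45 and 10.4 in SpACE, against 8.73, 7.43 and 10.1 CPM in nCas9. With RNF2 it had 20.8, 17.8 and 19.8 CPM in ABEmax, 17.5, 14.2 and 13.6 in miniABEmax-V82G, 16.2, 14.3 and 13.9 in Target-AID and 17.4, 15.8 and 14.3 in SpACE, against 15.2, 11.2 and 10.1 CPM in nCas9. All editors lay above nCas9 with HEKsite2, and with RNF2 ABEmax did. The rises were 0.83 ± 0.15 (SE, adjusted p = 0.000109) in ABEmax, 0.69 ± 0.15 (adjusted p = 0.00124) in miniABEmax-V82G, 0.82 ± 0.14 (adjusted p = 1.20e-05) in Target-AID and 0.51 ± 0.15 (adjusted p = 0.0111) in SpACE with HEKsite2. ABEmax with RNF2 rose by 0.67 ± 0.13 (adjusted p = 0.000599). The SpACE rise was lost without SpACE replicate 1 or 2 or nCas9 replicate 2, at 0.42 to 0.46. With RNF2 the other editors had 0.30 in miniABEmax-V82G, 0.27 in Target-AID and 0.37 in SpACE, and none passed. nCas9 replicate 1 with RNF2 was the highest of its group, and without it the 3 values were 0.49, 0.47 and 0.57 and each passed, with adjusted p of 0.0313, 0.0137 and 0.00729. SpACE with RNF2 also passed without SpACE replicate 3, at 0.44 (adjusted p = 0.0444), and without the filter on low counts, at 0.39 (adjusted p = 0.029). With replicate number in the fit it passed as well, at 0.38 (adjusted p = 0.0338). GFP libraries had 8.77, 8.75 and 9.27 CPM. CCDC24, which overlaps SLC6A9 on the other strand, had 495 reads in all libraries together against 3943 for SLC6A9.

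Against GFP the 10 genes split. For each construct the libraries of both guides were compared with the 3 GFP libraries, which these comparisons share. nCas9 itself had 4 members higher, where 22.8% of all tested genes were higher, and 2 lower, where 22.7% were lower. In ABEmax 8 were higher and 2 lower, against 27% and 27% of all tested genes. miniABEmax-V82G had 6 higher and 2 lower against 24.2% and 24.3%, and Target-AID 6 higher and 1 lower against 27.4% and 24.6%. SpACE had 6 higher and 2 lower against 21.4% and 21.9%. Calls against GFP were thus common among all genes. The shares of members higher were above the background, and the shares lower were near or under it. The limit from the choice of members holds here too.

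SLC3A2 and SLC1A4 were the members that differed most from GFP. SLC3A2 was higher by 1.38 ± 0.076 (SE) in ABEmax, 1.07 ± 0.075 in miniABEmax-V82G, 1.03 ± 0.075 in Target-AID, 1.20 ± 0.076 in SpACE and 0.83 ± 0.075 in nCas9. SLC1A4 was higher by 1.48 ± 0.10 in ABEmax, 1.03 ± 0.10 in miniABEmax-V82G, 1.05 ± 0.10 in Target-AID, 1.12 ± 0.10 in SpACE and 0.69 ± 0.10 in nCas9. The libraries of these groups did not overlap those of GFP for either gene. SLC7A5 was higher in all 5 constructs, from 0.27 ± 0.072 in nCas9 (adjusted p = 0.00201) to 0.70 ± 0.072 in ABEmax (adjusted p = 1.18e-10). SLC7A1, SLC7A3 and SLC6A9 rose in the 4 editors and not in nCas9, where SLC7A1 had -0.13 ± 0.064 (adjusted p = 0.0987), SLC7A3 0.027 ± 0.12 (adjusted p = 0.875) and SLC6A9 0.22 ± 0.13 (adjusted p = 0.166). The nCas9 value of SLC7A1 was a fall past the threshold without the filter on low counts, at -0.15 (adjusted p = 0.0478), and in a fit of the groups compared alone, at -0.13 (adjusted p = 0.0425). In editors SLC7A1 ran from 0.25 in miniABEmax-V82G to 0.50 in Target-AID, SLC7A3 from 0.36 in ABEmax to 0.61 in Target-AID, and SLC6A9 from 0.66 in SpACE to 0.97 in ABEmax. The ABEmax value of SLC7A3 was lost without GFP replicate 1 or 2, at 0.29 to 0.31.

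SLC7A11 and SLC38A1 went the other way. SLC7A11 averaged 102 ± 7.43 CPM in nCas9 with HEKsite2 and 121 ± 3.76 CPM in nCas9 with RNF2, against 208 ± 18.7 CPM in GFP (SD, n = 3 each). Its log2 fold change over GFP was -0.90 ± 0.062 (SE, adjusted p = 5.27e-15) in nCas9, or 0.535 of the GFP level. SpACE had -0.60 ± 0.061 (adjusted p = 2.45e-10), miniABEmax-V82G -0.42 ± 0.061 (adjusted p = 3.50e-07), ABEmax -0.20 ± 0.061 (adjusted p = 0.00595) and Target-AID -0.17 ± 0.061 (adjusted p = 0.0214). Libraries of nCas9, SpACE and miniABEmax-V82G all lay below GFP, while those of ABEmax and Target-AID overlapped it. The ABEmax fall was lost without GFP replicate 2, at -0.14, and the Target-AID fall without GFP replicate 1 or 2, Target-AID HEKsite2 replicate 3 or Target-AID RNF2 replicate 3, at -0.10 to -0.15, and in a fit of the groups compared alone, at -0.18 (adjusted p = 0.056). SLC7A11 was thus higher in editors than in nCas9 and lower in editors than in GFP. SLC38A1 was lower than in GFP at -0.41 ± 0.052 in nCas9 (adjusted p = 1.85e-08), with -0.28 ± 0.052 in miniABEmax-V82G, -0.21 ± 0.052 in ABEmax and -0.18 ± 0.052 in SpACE. The SpACE value was lost without GFP replicate 2, at -0.13. In Target-AID SLC38A1 had -0.088 ± 0.052 (adjusted p = 0.155), and it passed without GFP replicate 1, at -0.15. SLC1A5 rose in ABEmax, by 0.19 ± 0.06 (adjusted p = 0.00554), and in nCas9, by 0.18 ± 0.059 (adjusted p = 0.0132), and the nCas9 rise was lost without GFP replicate 2, at 0.15. SLC38A2 rose in ABEmax, by 0.24 ± 0.049 (adjusted p = 5.22e-05). In SpACE it had 0.10 ± 0.048 (adjusted p = 0.09), and it passed without SpACE RNF2 replicate 2, at 0.12, and in a fit of the groups compared alone, at 0.12 (adjusted p = 0.0425). The mesenchymal marker sum was also highest in GFP libraries, and its part in these differences was not tested. GFP libraries differed from the rest in both construct and lack of a guide, so these 2 cannot be told apart.

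**Figure D3:**
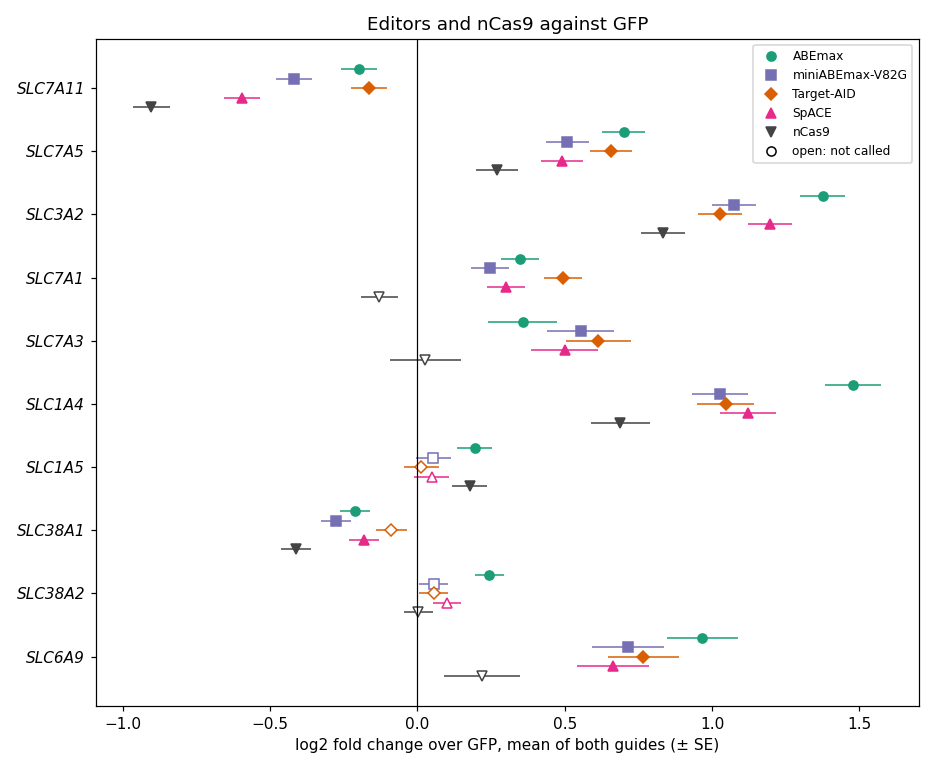
Log2 fold change over GFP for each editor and nCas9, with the libraries of both guides averaged. Markers are estimates of the fit and bars are ± SE; filled markers passed an adjusted p of 0.05. SLC3A2 and SLC1A4 lie right of 0 for all 5 constructs, and SLC7A11 lies left of 0 for all 5, farthest in nCas9 at -0.90.

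SpACE was also compared with the editors of single bases, over both guides. Against miniABEmax-V82G, 1 member was lower, where 2.74% of all tested genes were lower. This was SLC7A11, at -0.18 ± 0.052 (SE, adjusted p = 0.0333), with overlapping libraries. The call was lost in 9 of 12 fits with a library left out, at -0.15 to -0.19. It was kept without miniABEmax-V82G HEKsite2 replicate 1, miniABEmax-V82G RNF2 replicate 3 or SpACE HEKsite2 replicate 2, and lost without each of the other 9 libraries. Against Target-AID, 1 member was higher, where 14.9% of all tested genes were, and 3 were lower, where 17.2% were. SLC7A11 was lower, at -0.43 ± 0.051 (adjusted p = 1.14e-08) and its SpACE libraries lay below all Target-AID libraries. SLC7A1 was lower, at -0.20 ± 0.051 (adjusted p = 0.00288) and SLC7A5 was lower, at -0.17 ± 0.057 (adjusted p = 0.0218). SLC3A2 was higher, at 0.17 ± 0.058 (adjusted p = 0.0217). For SLC7A1, SLC7A5 and SLC3A2 the libraries overlapped. The SLC7A5 call was lost without Target-AID HEKsite2 replicate 1, SpACE HEKsite2 replicate 2 or 3, Target-AID RNF2 replicate 1 or SpACE RNF2 replicate 1, at -0.12 to -0.15. The SLC3A2 call was lost without SpACE HEKsite2 replicate 1, Target-AID HEKsite2 replicate 2, SpACE RNF2 replicate 1 or Target-AID RNF2 replicate 2, at 0.11 to 0.16. Both were also lost in a fit of the groups compared alone, at -0.16 (adjusted p = 0.0514) and 0.17 (adjusted p = 0.0601). SLC38A1 had -0.093 ± 0.043 (adjusted p = 0.0905) and passed without Target-AID HEKsite2 replicate 3 or Target-AID RNF2 replicate 3, at -0.12 in both cases.

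The 2 guides were compared in nCas9 cells, and each editor's difference from nCas9 was compared between guides. In nCas9, 1 of the 10 was higher with the RNF2 guide than with the HEKsite2 guide, where 0.602% of all tested genes were. This was SLC7A1, at 0.27 ± 0.076 (SE, adjusted p = 0.044), and the call was lost without nCas9 HEKsite2 replicate 1 or 3 or nCas9 RNF2 replicate 1 or 3, at 0.22 to 0.28. SLC7A5 had 0.28 ± 0.082 (adjusted p = 0.0644) and passed in DESeq2, at 0.28 (adjusted p = 0.0428), without the filter on low counts, at 0.27, and in a fit of the 2 groups alone, at 0.28. It passed with replicate number in the fit too, at 0.28 (adjusted p = 0.048). SLC7A11 had 0.24 ± 0.077 (adjusted p = 0.0944) and passed in the fit of the 2 groups alone, at 0.25. The interaction of editor and guide was called for 0 of the 10 genes in each of the 4 editors, by edgeR and by DESeq2. Few genes were called for it in all, from 0 of 14613 in ABEmax to 0.137% higher and 0.0274% lower in Target-AID, so that 0 of 10 is near the background. An unadjusted p under 0.05 was found for 1 gene in ABEmax, 0 in miniABEmax-V82G, 1 in Target-AID and 1 in SpACE. The widest was SLC6A9 in Target-AID, where the rise over nCas9 with RNF2 less the rise with HEKsite2 was -0.55 ± 0.20 (95% interval -0.95 to -0.15, adjusted p = 0.39). That difference did not pass the adjustment over all tested genes.

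Against nCas9, genes for other amino acid transporters had 1 to 7 calls of 24 in each comparison, and most of those were lower. Of 29 listed, 24 passed the filter on low counts, and 0 to 1 were higher and 1 to 6 lower than in nCas9, depending on the editor and guide. The share lower was near that of all tested genes in Target-AID, at 20.8% against 19.1% with HEKsite2 and 16.7% against 15.8% with RNF2, and in miniABEmax-V82G with RNF2, at 4.17% against 5.72%. It was above that share in the remaining comparisons. With HEKsite2 it was 25.0% against 10.2% in SpACE, 16.7% against 7.55% in ABEmax and 8.33% against 5.32% in miniABEmax-V82G. With RNF2 it was 12.5% against 6.68% in SpACE and 8.33% against 4.66% in ABEmax. The share higher was at most 4.17% and under that of all tested genes in each comparison, which ran from 5.02% to 21.5%. Their median log2 fold change ran from -0.086 to 0.0099 over the 8 comparisons. SLC38A10, a relative of SLC38A1 and SLC38A2, was lower in all 8, from -0.20 to -0.37. SLC38A9, a lysosomal arginine sensor of the mTORC1 pathway, was higher in Target-AID, by 0.34 with HEKsite2 and 0.30 with RNF2. SLC7A8, another light chain that pairs with SLC3A2, was lower in Target-AID, at -0.63 with HEKsite2 and -0.62 with RNF2. Against GFP the same 24 genes were called in both directions, with 7 higher and 8 lower in ABEmax, 8 and 4 in miniABEmax-V82G, 7 and 3 in Target-AID, 5 and 5 in SpACE and 6 and 4 in nCas9. Between 21.4% and 27.4% of all tested genes were called in each direction there. SLC43A1, a carrier of leucine and other neutral amino acids, was higher than in GFP in all 5 constructs, by 1.38 in ABEmax, 1.15 in miniABEmax-V82G, 1.04 in Target-AID, 0.87 in SpACE and 1.23 in nCas9.

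Genes of the ATF4 pathway, a list that holds none of the 10, were called higher more often than lower in each of the 8 comparisons. Of 28 tested, 24 were higher and 1 lower in ABEmax with HEKsite2, 16 and 1 in miniABEmax-V82G, 19 and 4 in Target-AID, and 22 and 2 in SpACE. With RNF2 they were 23 and 0 in ABEmax, 14 and 1 in miniABEmax-V82G, 18 and 2 in Target-AID, and 19 and 1 in SpACE. In this order the shares higher with HEKsite2 were 85.7%, 57.1%, 67.9% and 78.6%, against 8.31%, 5.02%, 21.5% and 10.7% of all tested genes. With RNF2 they were 82.1%, 50.0%, 64.3% and 67.9%, against 6.51%, 6.88%, 19.4% and 8.03%. The share lower was under that of all tested genes in each comparison. The list's median log2 fold change ran from 0.24 to 0.60. This list was also chosen with earlier results of these data known, so its shares are a description. ASNS, which makes asparagine, was higher in all 8, from 0.27 to 0.79, as was CHAC1, which breaks down glutathione, from 0.48 to 1.00. SESN2, a leucine sensor, was also higher in all 8, from 0.36 to 1.05. The transcript of ATF4 itself had 0.27 and 0.23 in ABEmax with HEKsite2 and RNF2, 0.015 and -0.10 in miniABEmax-V82G, -0.16 and -0.049 in Target-AID, and -0.26 and -0.041 in SpACE. Of these 8 values, both in ABEmax passed as higher, and those of Target-AID and SpACE with HEKsite2 passed as lower. DDIT3, a transcription factor downstream of ATF4, was higher in ABEmax, by 0.76 and 0.65 with HEKsite2 and RNF2, and lower in Target-AID, at -0.94 and -0.74. Against GFP, 23 of the 28 genes were higher and 0 lower in ABEmax, 19 and 1 in miniABEmax-V82G, 23 and 2 in Target-AID, 22 and 1 in SpACE, and 15 and 5 in nCas9. Of all tested genes, 21.4% to 27.4% were called in each direction against GFP, with 22.8% higher and 22.7% lower in nCas9. The list's median over GFP in nCas9 was 0.27. ASNS was among the 5 that were lower there, at -0.56, where SLC3A2 was at 0.83 and SLC7A11 at -0.90.

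The remaining lists had calls in both directions. Of 20 genes of the NRF2 and glutathione list, which includes SLC3A2, 3 to 6 were higher and 1 to 9 lower over the 8 comparisons, with a median from -0.10 to 0.037. HMOX1, a haem-degrading target of NRF2, was higher by 0.82 in ABEmax and 0.99 in SpACE with HEKsite2, while NQO1, another target, was lower in Target-AID at -0.86 with HEKsite2 and -0.67 with RNF2. Of 20 enzymes of glutamine, serine and glycine metabolism, 3 to 6 were higher and 0 to 10 lower, with a median from -0.15 to 0.09. In Target-AID with HEKsite2, 30.0% of these enzymes were higher and 50.0% lower, against 21.5% and 19.1% of all tested genes. The NRF2 and glutathione list had 20.0% higher and 45.0% lower there. In ABEmax with HEKsite2 the enzymes had 30.0% higher and 5.0% lower, against 8.31% and 7.55%. Of 21 genes of amino acid sensing by mTORC1, 2 to 7 were higher and 0 to 5 lower, with a median from -0.034 to 0.083. The lists share genes, such as ASNS and SESN2, so their counts are not independent. Among all tested genes the share lower than in nCas9 was between 4.66% and 19.1%, and the share higher was between 5.02% and 21.5%.

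**Figure D4:**
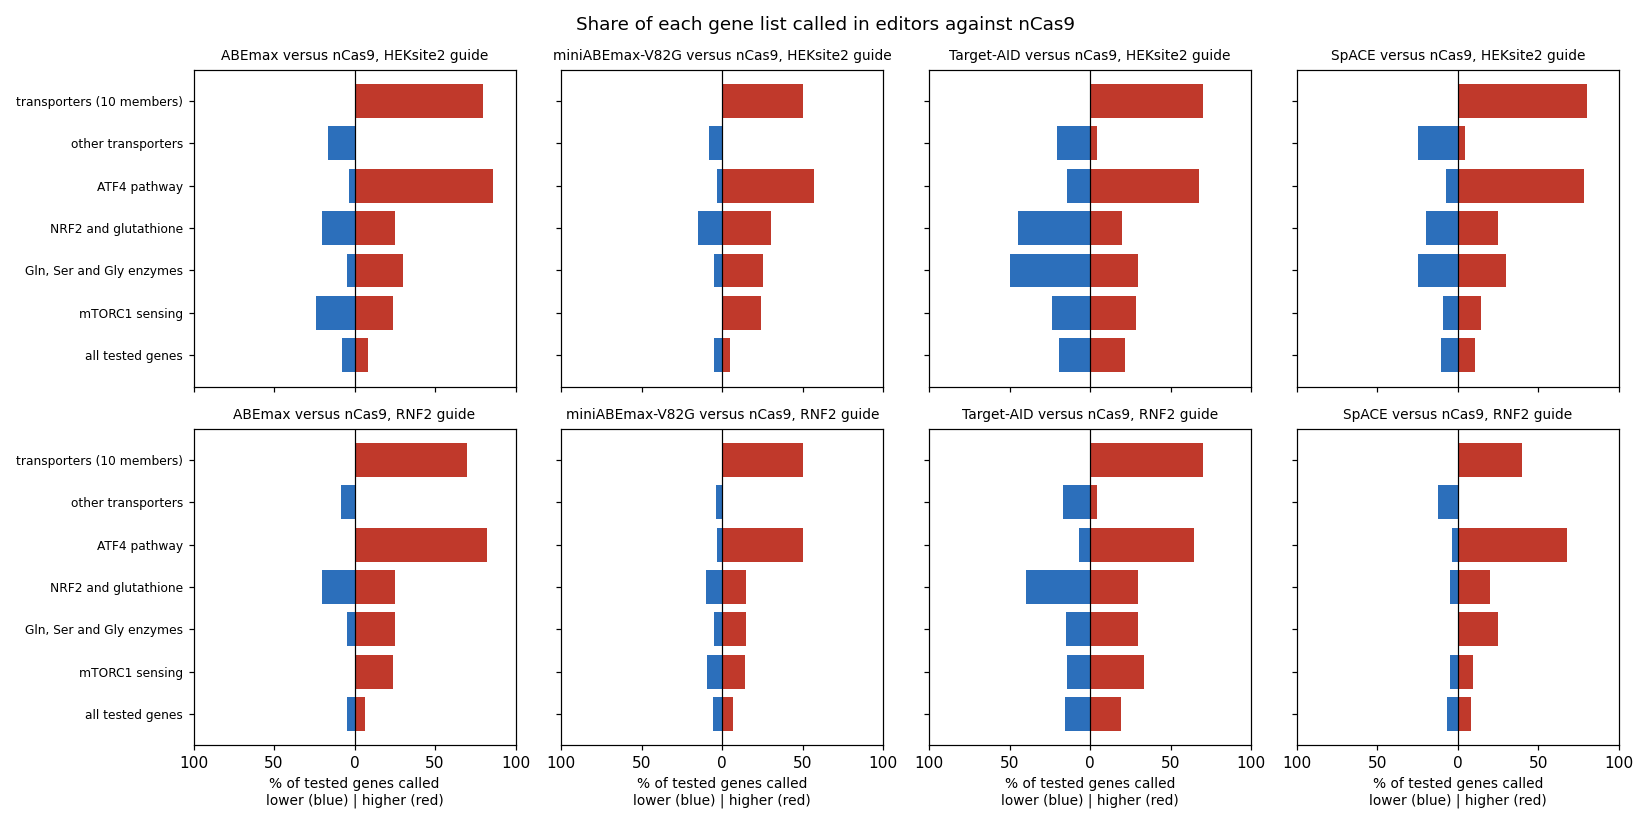
Percent of tested genes of each list called higher (right of 0) and lower (left of 0) in each editor against nCas9 with the same guide, beside the same percent over all tested genes. The 10 transporters and the ATF4 pathway have their calls mostly or wholly on the higher side, and the other amino acid transporters mostly on the lower side, with 0 to 1 of 24 higher.

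Genes outside the 10 whose levels followed each transporter most closely were ranked by Pearson's r of the mean log2 CPM over the 11 groups. The ranking was among 10071 genes that averaged at least 3 on the log2 CPM scale, leaving out clone, LOC and orf names. This is a description over 11 points that share their scaling. SLC3A2 was followed by TRIB3 (r = 0.983), TRIM11 (0.981) and ISL2 (0.981). For SLC1A4 the closest were GPT2 (r = 0.981), TRIB3 (0.972) and EIF5 (0.966), and for SLC7A1 they were MTHFD1L (r = 0.967), ZSCAN29 (0.966) and DDX20 (0.964). SLC7A5 was followed by JADE1 (r = 0.97), IP6K1 (0.966) and USP31 (0.963), SLC7A11 by FNIP1 (r = 0.937) and ZNF292 (0.93), and SLC38A1 by CDYL (r = 0.963) and LRP1B (0.96). The closest gene was RALGDS for SLC7A3 (r = 0.959), NELFCD for SLC1A5 (0.91), SGSH for SLC38A2 (0.937) and TMEM242 for SLC6A9 (0.937). Among the 10 genes the closest pair was SLC3A2 and SLC1A4 at 0.973. SLC7A5 and SLC1A4 had 0.901, and SLC7A11 and SLC38A1, the pair highest in GFP, had 0.839. SLC7A11 and SLC3A2, whose proteins form 1 exchanger, had -0.108.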

How the data were processed

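RNA from 33 libraries of sorted HEK293T cells was measured with a stranded total RNA kit, per the labels' protocols. The deposited file holds raw counts per gene symbol, made by the authors, with 26475 genes, of which 2603 had no count. The submitters' processing notes name STAR, GATK 3.8.1, Picard 2.7 and GRCh38 without their roles. For the counting tool, its strand setting and the annotation, the value was not given in the sources used here. All columns were matched to samples by name.

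Genes were kept by filterByExpr, counts were scaled by TMM, and the 11 groups were fitted together with edgeR 4.0.16 (R 4.3.3, limma 3.58.1), which left 22 residual degrees of freedom. Quasi-likelihood F-tests were two-sided and adjusted by the Benjamini-Hochberg method over 14613 genes in each of 20 comparisons. SE values come from that fit. Both guides were averaged in comparisons with GFP and between editors. Alternatives were RLE scaling, no filter, DESeq2 1.42.0, a fit of the groups compared alone, a replicate block, GFP in place of nCas9, and each library left out. Where a library is left out, the spread comes from all groups. The text names all 10 transporters, ATF4, DDIT3, ASNS and CHAC1, and from each other list at most 4 called genes a comparison, those with the largest absolute log2 fold change that averaged at least 1 on the log2 CPM scale. The 10 genes and the lists were chosen with earlier results of these data known. Positions are from GENCODE 29 and promoters from RefSeq. Python 3.11.15, pandas 2.3.3 and matplotlib 3.10.9 were used.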

Additional observations from a re-analysis of the deposited data

How the results depend on the processing

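There were 200 results per setting, each a log2 fold change of a transporter in 1 comparison. A result was kept if it stayed on its side of the threshold and, where called, kept its direction. This held for 197 under RLE scaling, 197 in DESeq2, 193 without the filter on low counts and 190 when only the groups compared were fitted. RLE scaling moved the median of all genes by at most 0.00493. When a library was left out, 57 of 1710 values lost their call and 15 gained one, and 0 changed sign while called. Over all tested genes, the correlation of deviations between same-numbered editor and nCas9 libraries ran from -0.0714 to 0.17. In 0 of 8 comparisons were all 3 over 0.1, so the main fit did not pair libraries by replicate number. Single genes could still follow the numbers, which this check does not address. For SLC1A4, replicate 1 was the highest library in every nCas9 and editor group. With a replicate block, which puts replicate number in the fit, 193 of 200 results were kept, 7 were gained and 0 lost. Gained against nCas9 were SLC1A4 in miniABEmax-V82G and SLC3A2 in Target-AID with HEKsite2. With RNF2 they were SLC3A2 in miniABEmax-V82G and SLC6A9 in SpACE. SLC1A5 was gained as lower in Target-AID with both guides. SLC1A4 then passed in every comparison with nCas9. The count of members higher with the RNF2 guide in nCas9 was 2, with SLC7A5 gained.

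With GFP in place of nCas9, 51 of 80 results were kept, 11 gained a call and 1 lost it. The other 17 changed sign, with a call against nCas9, against GFP or both. A change of sign between values that were not called counts as kept. SLC1A5 in miniABEmax-V82G, Target-AID and SpACE with RNF2 was such a case, below nCas9 and above GFP without a call. The lost call was SLC7A1 in miniABEmax-V82G with HEKsite2, at 0.046 (adjusted p = 0.661). SLC7A11 had -0.29, -0.49, -0.21 and -0.65 in ABEmax, miniABEmax-V82G, Target-AID and SpACE with HEKsite2, and -0.11, -0.35, -0.12 and -0.54 with RNF2, where ABEmax and Target-AID did not pass. SLC38A1 had -0.21, -0.34, -0.11 and -0.18 with HEKsite2 and -0.22, -0.21, -0.071 and -0.18 with RNF2, and both Target-AID values did not pass. SLC1A5 in ABEmax with RNF2 had 0.18, which passed. The cause was not tested.

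The members called against GFP were 8 in miniABEmax-V82G and 8 in SpACE with RNF2, in each case 6 higher and 2 lower. Over both guides, 24.2% of all tested genes were higher and 24.3% lower in miniABEmax-V82G than in GFP, and 21.4% and 21.9% in SpACE. With libraries left out these counts against nCas9 ran from 2 to 5 in miniABEmax-V82G and from 2 to 6 in SpACE. Between SpACE and miniABEmax-V82G the count ran from 0 to 1, and between SpACE and Target-AID from 2 to 5, with 2 when only those groups were fitted. For the guides in nCas9 it ran from 0 to 1, and was 2 without the filter, 2 in DESeq2 and 3 with only those groups. Depth limits SLC7A3 and SLC6A9 most, with 53 to 170 reads per library.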
